A study of Mus musculus with 18 samples.

Results

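The promoters described here belonged to 432 mouse genes that had an ATAC-seq summit near a transcript start in both fasted wild-type (WT) livers but not in both refed WT livers. A gene counted as open in a liver when a deposited summit, the single position of highest signal in a peak, lay within 1000 bp of the start of a RefSeq transcript. Of 26180 annotated genes, 1.65% met this rule, and 133 of the 432 (0.508% of the annotated genes) had a summit in neither refed liver. The other 299 had a summit in 1 refed liver, which was refed replicate 1 for 239 genes and refed replicate 2 for 60. The genes were chosen by the fasted and refed ATAC-seq summits of WT livers, so the presence of these summits is a description and not a result.

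All samples were liver of C57BL/6J mice, and the methods give littermates of 12 weeks. ATAC-seq covered 3 groups of 2 livers, from WT mice after fasting, WT mice after refeeding and JMJD1C-LKO mice after refeeding, and each mouse was processed separately. H3K9me2 ChIP-seq was made from 2 WT fasted and 2 WT refed livers, while RNA-seq used pooled RNA of refed mice, in 2 samples of each genotype. JMJD1C-LKO mice carried floxed Jmjd1c and Cre under the albumin promoter, which is active in hepatocytes, so other liver cells keep the gene. Every label carried the same treatment, 6 to 8 weeks on chow and then an overnight fast and 6 h of refeeding on a high carbohydrate diet, so fasted and refed were read from the titles. The methods give 8 to 16 h of refeeding for such experiments.

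ATAC-seq marks DNA that a transposase can reach, and active promoters usually show a nucleosome-free stretch just before the transcript start. Dimethylated lysine 9 of histone H3 (H3K9me2) is a mark associated with silent chromatin, and JMJD1C belongs to the KDM3 family of enzymes that remove it. In the liver, fasting turns on gluconeogenesis and fatty acid oxidation, and refeeding with carbohydrate turns on lipogenesis. A promoter can be accessible in both states while its gene is transcribed at different rates.

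To show what these promoters look like, the 150 bases before the transcript start are printed for 7 genes, read from GRCm38 5′ to 3′ on the strand of the gene. Each window held both fasted summits and no exon of an NM_ or NR_ RefSeq transcript, which was so for 35 of the 432 genes. Exons of other transcripts were not checked. The annotated genes Stat3 and Per2 reach into their windows, to positions 100939594 and 91459351. Mrpl18, on the other strand, spans chr17:12911345-12917787 and with it the whole Tcp1 window. Capitals mark matches, on either strand, to any of 9 short motifs. These were the E-box CACGTG, the NF-Y motif CCAAT, the GC box GGGCGG, the ETS motif CCGGAAGT, the NRF1 motif GCATGCGC, the cAMP response element (CRE) TGACGTCA, the FOX motif TGTTTAC, the C/EBP motif TTGCGCAA and the TATA box TATAAA. Atp5l (ATP synthase subunit g), Cope (a COPI coat subunit), Tcp1 (a chaperonin subunit) and Flad1 (FAD synthase) had no refed summit. Stat3, Mdh1 and Per2 had 1 and return below for their roles in signalling, gluconeogenesis and the clock.
Atp5l, chr9:44920743-44920892, minus strand: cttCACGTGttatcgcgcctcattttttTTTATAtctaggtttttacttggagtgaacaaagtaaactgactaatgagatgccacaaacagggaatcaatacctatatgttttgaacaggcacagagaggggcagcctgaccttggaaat
Cope, chr8:70302617-70302766, plus strand: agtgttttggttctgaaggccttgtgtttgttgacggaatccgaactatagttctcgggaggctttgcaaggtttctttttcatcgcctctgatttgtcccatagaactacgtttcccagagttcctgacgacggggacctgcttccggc
Tcp1, chr17:12916179-12916328, plus strand: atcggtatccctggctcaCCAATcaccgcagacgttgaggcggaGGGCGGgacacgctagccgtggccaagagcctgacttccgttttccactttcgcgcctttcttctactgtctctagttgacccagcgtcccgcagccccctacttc
Flad1, chr3:89411882-89412031, minus strand: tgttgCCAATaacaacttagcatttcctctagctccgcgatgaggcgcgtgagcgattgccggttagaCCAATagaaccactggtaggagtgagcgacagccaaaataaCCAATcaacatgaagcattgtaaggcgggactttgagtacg
Stat3, chr11:100939541-100939690, minus strand: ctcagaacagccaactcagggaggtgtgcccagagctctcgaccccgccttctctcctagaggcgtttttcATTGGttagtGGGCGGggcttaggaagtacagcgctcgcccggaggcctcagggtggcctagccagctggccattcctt
Mdh1, chr11:21571935-21572084, minus strand: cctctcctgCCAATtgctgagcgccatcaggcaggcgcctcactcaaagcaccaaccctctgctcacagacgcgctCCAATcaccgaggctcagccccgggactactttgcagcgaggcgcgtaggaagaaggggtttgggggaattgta
Per2, chr1:91459329-91459478, minus strand: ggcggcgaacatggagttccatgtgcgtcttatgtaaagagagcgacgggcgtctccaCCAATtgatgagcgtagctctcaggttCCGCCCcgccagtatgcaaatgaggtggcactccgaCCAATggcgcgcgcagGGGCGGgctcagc

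These windows differed widely in content. Flad1 held 3 NF-Y matches and Per2 held NF-Y and GC box matches, whereas Cope held no match to any of the 9 motifs. Atp5l was the only one of the 7 with an E-box and a TATA box match. Over 430 member starts, 51.6% of the 150-base windows held a GC box and 36.5% an NF-Y motif, against 35.3% and 25.5% of the windows before all 31603 starts. A match is a string of letters and does not show that a factor binds there.

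A CRE was present upstream of 5.58% of member starts and 1.65% of all starts. At the fasted summits themselves it was not more frequent, with a match within 100 bp of 1.17% and 1.75% of member summits in fasted replicates 1 and 2, 1.64% of fasted replicate 1 summits at genes open in both states and 1.86% of all starts. Windows of all starts are centred on the start and not on a summit, so they differ in position from the summit windows. The CRE is shown, alone in capitals, for 4 genes in the same windows and build. The Ldha window lies before an internal start and inside the annotated gene, which spans chr7:46842274-46855627. Ldha makes lactate dehydrogenase A, Ddx49 an RNA helicase, Plk2 a polo-like kinase and Rpl27a a protein of the large ribosomal subunit. The first 3 had no refed summit.
Ldha, chr7:46845654-46845803, plus strand: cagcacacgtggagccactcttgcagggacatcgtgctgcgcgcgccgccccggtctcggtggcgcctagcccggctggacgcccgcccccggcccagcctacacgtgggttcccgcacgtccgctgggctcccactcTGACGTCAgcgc
Ddx49, chr8:70302472-70302621, minus strand: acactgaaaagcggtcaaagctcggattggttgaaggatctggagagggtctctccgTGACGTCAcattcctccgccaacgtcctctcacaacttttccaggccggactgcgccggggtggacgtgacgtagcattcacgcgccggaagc
Plk2, chr13:110394894-110395043, plus strand: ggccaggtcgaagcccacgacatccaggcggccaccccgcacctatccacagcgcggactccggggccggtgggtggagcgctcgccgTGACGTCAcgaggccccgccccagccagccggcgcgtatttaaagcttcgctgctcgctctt
Rpl27a, chr7:109519045-109519194, plus strand: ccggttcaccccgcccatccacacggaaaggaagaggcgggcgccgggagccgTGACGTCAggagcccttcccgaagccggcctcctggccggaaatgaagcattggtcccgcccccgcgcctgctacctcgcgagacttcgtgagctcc

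In Ldha the CRE began 12 bases before the start, while the fasted summits lay 471 and 455 bp after it. The Ddx49 summits lay 195 and 158 bp upstream of its start, and the fasted replicate 2 summit of Rpl27a 197 bp upstream, so these too were outside the windows. The Ddx49 window lies beside that of Cope, because these genes are read in opposite directions from neighbouring starts and share their summits.

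The ATAC-seq lists differed in length and content, which set how many genes could be counted in each. Fasted replicates 1 and 2 held 5220 and 7632 summits, refed replicates 5027 and 3119, and JMJD1C-LKO replicates 1450 and 825. Fasted replicate 2 stood apart, with 78% of its summits in repeats against 19% in fasted replicate 1, and had a summit at 1436 genes against 3147. Its list therefore limited which genes could be members, and without it 2131 genes would have met the rule. Without refed replicate 2 the count was 193. Members with no refed summit numbered 246 without fasted replicate 1, 1204 without fasted replicate 2 and 372 without refed replicate 1. In the ChIP-seq, refed replicate 1 stood apart with 1297 summits, 73% of them in repeats, against 7690 to 13456 in the other 3 livers. Read depth is unknown from these lists, and a missing summit says only that no peak was called. The genes open in both fasted livers numbered 1141, of which 37.9% were members, and 43.4% of the 1252 genes open in both refed livers were open after refeeding only. Since any comparison of 2 against 2 livers cannot go below an exact permutation p of 0.33, feeding states were described without a test.

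At the member promoters the fasted summits sat close to the start and to each other. The median position of the strongest summit was 89 bp upstream of the start in fasted replicate 1 and 91 bp upstream in fasted replicate 2, and 79.4% and 80.8% lay within 250 bp of it. The 2 summits of a gene were within 200 bp of each other in 377 genes (87.3%), with a median gap of 54 bp. Of the summits of fasted replicate 1, 233 lay outside any transcript, 149 in exons and 50 in introns. Only 1 of them and 4 of those of fasted replicate 2 lay in repeats, so the repeat summits of the latter list barely touched these genes. The members used 342 distinct summits in fasted replicate 1. A summit was shared with another member by 176 genes, and 82 summits served members on opposite strands. The latter lay between or over the members, so they include overlapping genes as well as bidirectional promoters. Genes that share a summit are not independent, and other open promoters were not counted in this way.

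**Figure D1:**
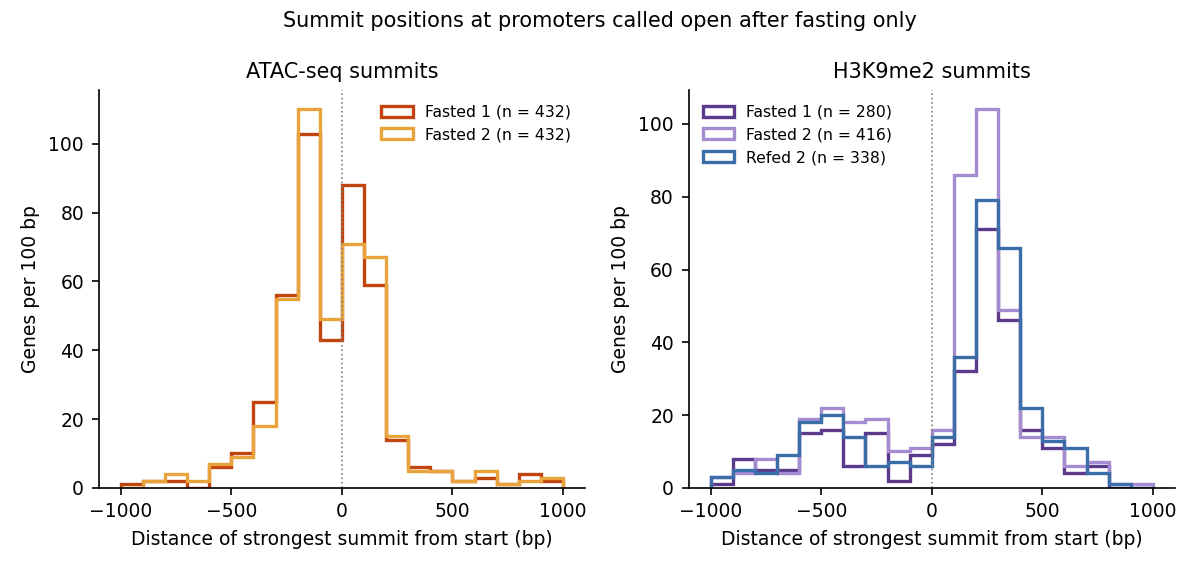
Histograms of the distance (bp, negative upstream) of the strongest summit from the transcript start, in genes per 100 bp, for ATAC-seq of the 2 fasted livers (left, 432 genes each) and H3K9me2 of 3 livers (right, 280, 416 and 338 genes with a summit). ATAC-seq summits centred just upstream of the start, with medians of -89 and -91 bp, and H3K9me2 summits downstream of it, with medians of 236, 192.5 and 247 bp.

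Member summits ranked in the upper part of their lists, below those of genes open in both states. The score, which is the −log10 of the q-value at the summit, had a median of 7.46 in fasted replicate 1 (range 2.16 to 22.9) and 4.88 in fasted replicate 2 (range 1.9 to 17.1). Ranked from the strongest, the median member lay at the percentile 31.2 of fasted replicate 1 and 23.7 of fasted replicate 2. The 709 genes open in both states ranked higher, at 19.3 and 11.7. A score of at least 5 in both fasted livers was reached by 171 members, 38 of them with no refed summit. Where a refed liver had no summit within 1000 bp, the nearest one was usually far away, with a median distance of 119000 bp in refed replicate 1 and 191000 bp in refed replicate 2. At the edge of the rule, the fasted summits of C030034I22Rik, Naaladl2 and Tmem38a lay 989, 958 and 940 bp from a start, and those of Iscu and Sspn just outside it, at 1003 and 1097 bp. Ndufaf4 was a member although a refed summit lay 1093 bp from its start.

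The genes with no refed summit and the best ranks in both fasted livers came from a few loci. Atp5l (chr9:44913248-44920742) had summits 44 and 72 bp upstream of its start, with scores of 12.7 and 13.5 in fasted replicates 1 and 2. At 1 locus on chromosome 13, Trappc13 (a subunit of the TRAPP tethering complex), Shld3 (a shieldin subunit that acts in DNA repair) and Trim23 (a ubiquitin ligase) shared summits of score 16.2 and 7.84. Ldha followed at 15.1 and 7.84. Yju2, a splicing factor, and the overlapping noncoding gene Gm16712 shared summits of 12.9 and 10, and Cope and Ddx49 shared summits of 12 and 8.91. Cep120, which acts at centrosomes, had 11.6 and 7.84. Of these 10 genes, only Yju2 and Gm16712 had a summit in a JMJD1C-LKO liver, at 5.99 in replicate 1.

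Of the lists of fasting and feeding genes, gluconeogenesis held the largest share of members. Of its 20 genes 3 (15%) were members, against 1.65% of all annotated genes, namely Creb3l3 (a liver-enriched transcription factor of the CREB family that acts in fasting), Creb1 and Mdh1 (cytosolic malate dehydrogenase). Creb1 and Mdh1 also had a summit in refed replicate 1, with scores of 3.62 and 7.59. Over the whole list, 6 and 5 genes had a summit in fasted replicates 1 and 2, and 6 and 2 in the refed ones. Creb3l3 had summits 304 and 296 bp upstream of a start, with scores of 7.03 and 4.88, and none in a refed or JMJD1C-LKO liver. That start is internal to the gene (chr10:81084329-81098872, minus strand), and the summit of fasted replicate 1, at 81092895, lay in an intron. None of 35 genes of fatty acid oxidation and ketogenesis, 25 of cholesterol synthesis and 36 of amino acid breakdown and the urea cycle was a member, and of 25 lipogenic genes only Dgat2, which makes triglyceride, was. Named by membership alone, G6pc, Pck1, Ppargc1a, Foxo1, Acot1, Fasn, Acly, Acaca, Gpam and Srebf1 were not members. Of these only Acly had an ATAC-seq summit near a start in any of the 6 livers, in refed replicate 1. Their absence says only that no fasted peak was called there, not that these promoters were alike in the 2 states. Autophagy gave Atg101, Atg12 and Atg4a of 41 listed genes (7.32%), insulin and mTOR signalling gave Tsc1 and Mlst8 of 43 (4.65%), and the circadian clock gave Per2 of 22 (4.55%). Genes open in both states and after refeeding only numbered 4 and 0 in autophagy and 4 and 1 in insulin and mTOR signalling. In the clock they numbered 2 and 2, so a share above 1.65% in these lists is not particular to members. For fatty acid oxidation they were 4 and 4, and for cholesterol synthesis 2 and 6. Gluconeogenesis and lipogenesis held 1 and 0 each, and amino acid breakdown 2 and 0. These lists were chosen with earlier results of these data known and received no test.

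The longer lists of housekeeping machinery held smaller shares than gluconeogenesis, to be read against the same 1.65%. Most also held genes open in both states and after refeeding only, so a share above 1.65% is not particular to members. These numbered 16 and 5 in vesicle trafficking, 7 and 11 in ubiquitin enzymes, and 15 and 16 in Zfp genes. For the chromatin families they were 12 and 5, and for respiratory chain subunits 7 and 1. Cytosolic ribosomal proteins held 3 and 1, mitochondrial ones 2 and 3, proteasome subunits 1 and 2, and histone genes 3 and 4, none above the member count. Vesicle trafficking gave 10 of 206 listed genes (4.85%), 6 of them with no refed summit, and ubiquitin enzymes gave 7 of 186 (3.76%). Zinc finger (Zfp) genes gave 11 of 403 (2.73%). Cytosolic ribosomal proteins gave Rpl19, Rps29, Rpl21, Rpl22l1 and Rpl27a of 90 (5.56%), and mitochondrial ribosomal proteins gave Mrpl18, Mrps33, Mrpl46 and Mrps11 of 78 (5.13%). Among 89 respiratory chain subunits Atp5l, Uqcrh, Ndufb3 and Atp5h were members (4.49%), 3 of them with no refed summit. Proteasome subunits gave Psmc6, Psmd10 and Psmd1 of 51 (5.88%). RNA polymerase, Mediator and TAF subunits gave Med16, Taf9, Polr1a and Polr3gl of 82 (4.88%). The chromatin families gave Kdm3a, a relative of Jmjd1c, with Kmt2a and Smarcal1 of 93 (3.23%), and histone genes gave 5 of 80 (6.25%), which share sequence with near-identical copies. Translation factors gave Eef1d and Eif4a3 of 73 (2.74%), splicing and RNA-binding proteins gave Prpf31 and Hnrnpul2 of 106 (1.89%), and tRNA synthetases gave Yars of 39 (2.56%). Of 1315 small nucleolar RNA and microRNA genes 5 were members (0.38%). By class, 400 members (92.6%) were protein coding against 80.2% of annotated genes, 22 were lncRNA genes and 6 microRNA genes.

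Refed JMJD1C-LKO livers, which the rule did not use, had a summit at a part of these promoters. In JMJD1C-LKO replicate 1 a summit was called at 110 members (25.5%, 95% Wilson interval 21.6 to 29.8), against 4.06% of all annotated genes. In replicate 2 it was called at 26 (6.02%, interval 4.14 to 8.67), against 0.886%. Of the members, 13 had a summit in both JMJD1C-LKO livers and 309 in neither. The summits were at the same place as after fasting, since 90 of 110 and 19 of 26 lay within 200 bp of the summit in fasted replicate 1. The list of JMJD1C-LKO replicate 2 was short, so a missing summit there is not the absence of open chromatin.

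The share was lowest in members with no refed summit and highest in genes open in both states. Members with no refed summit had one in JMJD1C-LKO replicate 1 in 21 of 133 cases (15.8%, interval 10.6 to 22.9) and those with 1 refed summit in 89 of 299 (29.8%, interval 24.9 to 35.2). Genes open in both states had one in 414 of 709 (58.4%, interval 54.7 to 62.0), and genes open after refeeding only in 178 of 543 (32.8%, interval 29.0 to 36.8). In replicate 2 the shares were 3.01% (interval 1.18 to 7.48), 7.36% (4.91 to 10.9), 13.0% (10.7 to 15.7) and 5.71% (4.05 to 7.99) in that order, so the first, second and last overlapped. In both livers the interval for all members lay below that of the genes open in both states, whose fasted summits also ranked higher. The intervals cover counting error and take genes as independent. Genotype, list length and summit strength cannot be told apart in these shares.

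The 13 members with a summit in both JMJD1C-LKO livers were largely short or repeated genes and bidirectional pairs. With no refed summit these were Rps29 and Rn7s1, which share a summit (scores 8.30 and 4.88 in the fasted, 3.52 and 4.69 in the JMJD1C-LKO livers), and the noncoding RNA gene Rnu3b3, named after its values were seen. With 1 refed summit they were the pair B3galt6 and Sdf4, the histone pairs H2ac22 with H2bc22 and H2ac6 with H2bc4, BC002059, Kctd7, Rpp38 and Mir6236. Mir6236 had JMJD1C-LKO scores of 26.3 and 43.3 against fasted scores of 7.72 and 4.88, whereas Sdf4 showed the reverse, with 6.81 and 4.77 against 11.2 and 15.9. Scores depend on depth and were not compared between livers by a test.

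**Figure D2:**
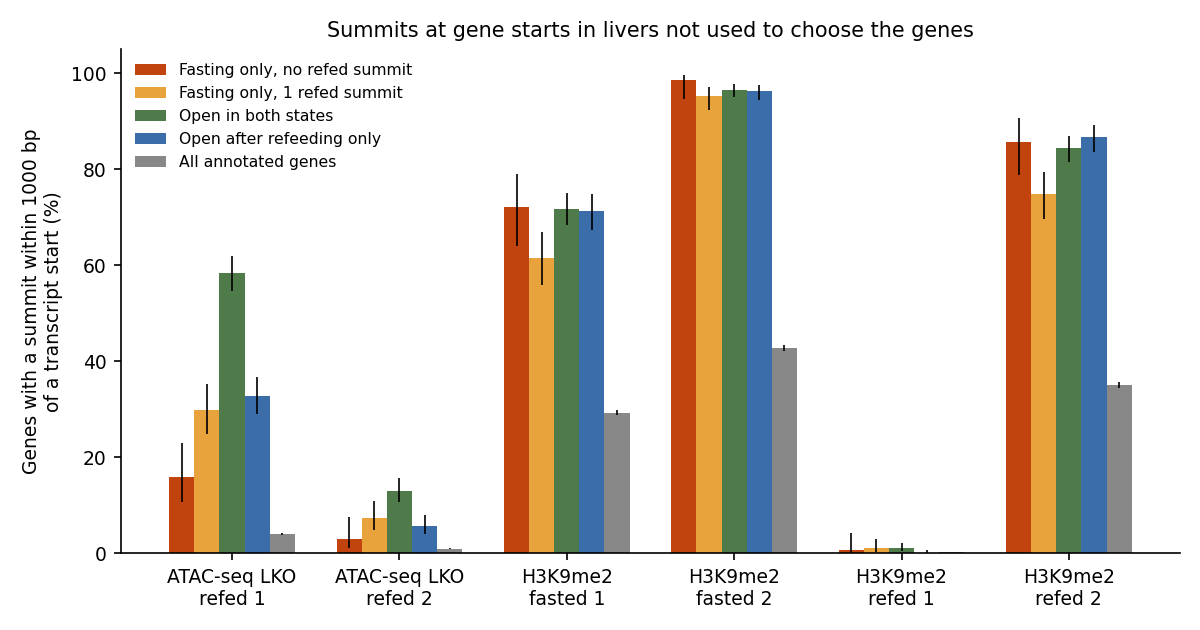
Percent of genes with a summit within 1000 bp of a transcript start in the 6 livers not used to choose the genes, for 5 gene groups, with 95% Wilson intervals as error bars. In JMJD1C-LKO (LKO) replicate 1 the share was 15.8% for members with no refed summit and 58.4% for genes open in both states, while H3K9me2 shares lay between 61.5% and 72.2% for the 4 open groups in fasted replicate 1 and between 0% and 1% for them in refed replicate 1.

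H3K9me2 summits stood at most member promoters, in fasted and in refed liver. They were called at 280 members (64.8%) in fasted replicate 1, 416 (96.3%) in fasted replicate 2 and 338 (78.2%) in refed replicate 2, against 29.3%, 42.7% and 35.1% of all annotated genes. In refed replicate 1 only 4 members (0.926%) had one, against 0.233% of all genes. With no more than the 1297 strongest summits kept in each liver, the shares were 13.4% and 14.4% after fasting and 0.926% and 13.2% after refeeding, against 5.74%, 5.82%, 0.233% and 5.76% of all genes. The refed livers thus differed from each other more than refed replicate 2 differed from the fasted livers, and no change between feeding states can be read from these promoters.

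The mark lay mostly beside the accessible DNA. Of the H3K9me2 summits at members, 70.7%, 71.4% and 72.8% lay downstream of the start in fasted replicates 1 and 2 and refed replicate 2, and the median gap to the ATAC-seq summit of fasted replicate 1 was 404, 351 and 419.5 bp. Only 18.6%, 28.1% and 19.2% lay within 200 bp of it. At Ldha, the H3K9me2 summits lay 360, 333 and 337 bp after the start with scores of 34.4, 115 and 48.1. At Creb3l3 they lay 336, 308 and 376 bp after its internal start with scores of 40.4, 99.9 and 42.1. Both genes thus carried the mark in 3 of the 4 livers.

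Genes open in both states and after refeeding only carried H3K9me2 summits in similar shares. In fasted replicate 1 these were 71.8% and 71.3%, against 72.2% of members with no refed summit and 61.5% (interval 55.9 to 66.9) of those with 1. In refed replicate 2 they were 84.5% and 86.7%, against 85.7% and 74.9% (interval 69.7 to 79.5). In these livers the share of members with 1 refed summit lay below the interval of the genes open in both states, but in fasted replicate 2 it did not, at 95.3% against 96.6% (interval 95 to 97.7).

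A summit in both fasted livers and neither refed liver was called at 15 members (3.47%), and at 272 (1.04%) of all genes. The share was 1.69% of genes open in both states and 1.47% of those open after refeeding only. Refed replicate 1 had a summit at only 61 genes, so the count rests on refed replicate 2. Members also carried both fasted summits more often, at 280 of 432 against 7621 of all 26180 genes, which raises their share. The 15 members were Alb, Cks1b, H2bc6, Smim7 and Tmem38a, with no refed ATAC-seq summit, and Anapc15, Ano10, Ensa, H2ac6, H2bc4, Lbp, Mlst8, Polr3gl, Tmem192 and Zfp712. Those outside the gene lists are named after their values were seen. Alb makes serum albumin and Lbp the lipopolysaccharide-binding protein, both secreted by hepatocytes. Only 2610005L07Rik had a summit in both refed livers, with scores of 2.14 and 33.7, and 13 members had none in any liver, among them Ccne1, Fbxo48, Mir6236, Snrnp25 and Spsb1, of which Ccne1, Snrnp25 and Spsb1 are named after their values were seen.

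RNA-seq compared refed WT with refed JMJD1C-LKO liver, so it says nothing of fasted levels. Jmjd1c itself was at 22.0 and 22.8 CPM in the WT and 20 and 20.5 CPM in the JMJD1C-LKO libraries, a log2 fold change of -0.14 (SE 0.08) that did not pass (adjusted p = 0.233 by edgeR's quasi-likelihood test). Gene totals do not show whether a floxed exon is missing, so these are called the libraries labelled JMJD1C-LKO, and so is every direction below. Hepatocyte markers summed to 111000 and 108000 CPM in the WT and 108000 and 96000 CPM in the JMJD1C-LKO libraries, and none of the 5 tested passed. Kupffer cell markers rose from 172 and 181 to 328 and 468 CPM, with 5 of 5 higher, endothelial markers from 82.8 and 85 to 113 and 148 CPM, with 4 of 5 higher, and lymphocyte markers stood at 10.3 and 8.69 against 16.6 and 22.7 CPM, with 2 of 5 higher. The part of these cells in the changes below was not tested, and more cells of a type and more RNA per cell cannot be told apart.

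Member genes were more often lower than higher in the libraries labelled JMJD1C-LKO. Of the 432, 404 were in the count table and 394 were tested. By edgeR's quasi-likelihood test at an adjusted p under 0.05, 37 (9.39%) were higher and 70 (17.8%) lower, against 14.6% and 13.4% of all 14147 genes tested. The median log2 fold change was -0.04, against 0.01 over all genes. The lean was shared with other open promoters, since 59 (9.16%) of 644 genes open in both states were higher and 111 (17.2%) lower, and 52 (10.4%) and 67 (13.4%) of 500 genes open after refeeding only. Without WT replicate 1 the calls among members were 8 higher and 18 lower, while 5.58% and 3.42% of all genes were called. Without WT replicate 2 they were 6 and 10, against 4.63% and 2.82% of all genes, and without JMJD1C-LKO replicate 2 they were 29 and 45, against 10.8% and 9.75%.

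Changes were small in most members. The median log2 fold change was 0.51 among the higher genes and -0.40 among the lower, and 4 higher and 2 lower genes changed by at least 1. The libraries of the groups did not overlap in any of the 37 higher or 70 lower members. Lack of overlap therefore adds nothing to a call. Of members with no refed summit and tested, 11 (8.8%) were higher and 26 (20.8%) lower, and of those with 1 refed summit 26 of 269 (9.67%) were higher and 44 (16.4%) lower, a difference that was not tested. Members with a JMJD1C-LKO summit gave 15 higher and 16 lower of 101 tested, and those without 22 and 54 of 293. Members with H3K9me2 summits in both fasted livers and refed replicate 2 gave 19 higher and 49 lower of 248 and had a median WT level of 12.7 TPM. Those with none in fasted replicate 1 gave 14 and 20 of 131 at a median of 3.05 TPM. All these subsets are to be read against 14.6% higher and 13.4% lower of all 14147 genes tested. Differences between subsets were not tested.

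**Figure D3:**
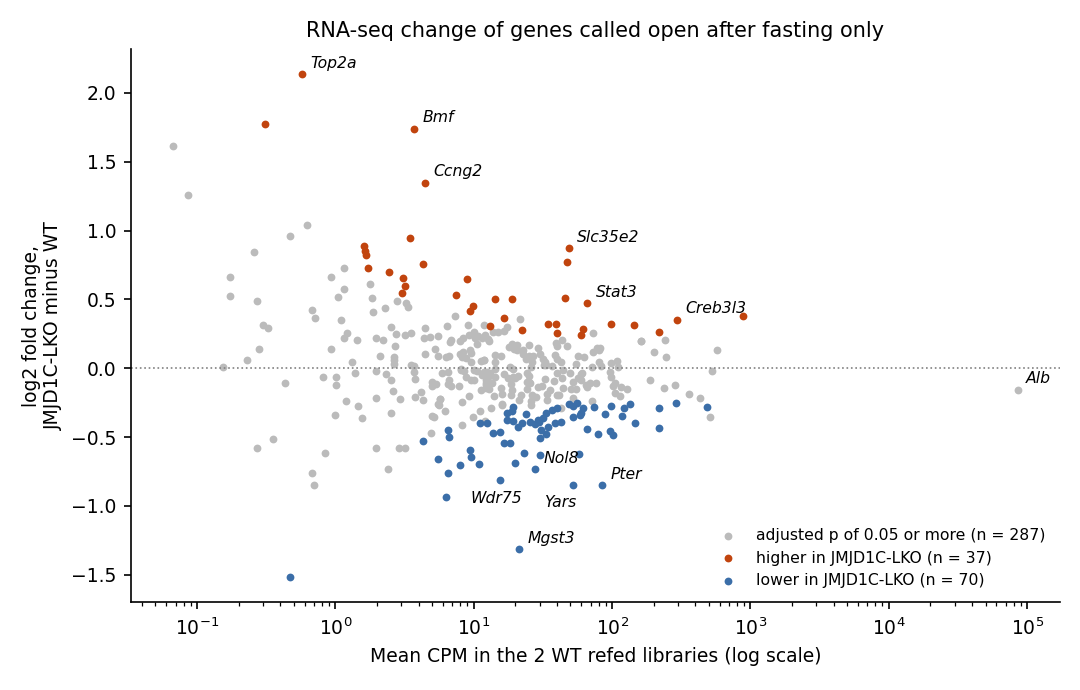
log2 fold change (JMJD1C-LKO minus WT) of the 394 tested members against their mean CPM in the 2 WT refed libraries (log scale), 1 point per gene, coloured by edgeR's call. The 37 higher genes reach 2.13 and the 70 lower genes -1.52, and most called points lie nearer to 0 than 1.

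The 5 higher members with the smallest p include regulators of growth and survival. Bmf, which promotes apoptosis, was at 3.68 and 3.74 CPM in WT and 13.8 and 11 CPM in the libraries labelled JMJD1C-LKO, a log2 fold change of 1.74 (SE 0.15, edgeR adjusted p = 0.000123). Ccng2, an unconventional cyclin linked to cell cycle arrest, was at 4.36 and 4.6 against 9.11 and 13.7 CPM, a change of 1.35 (SE 0.19, edgeR adjusted p = 0.00119). In each gene both libraries labelled JMJD1C-LKO stood above both WT libraries.
Top2a, the topoisomerase of dividing cells, was low throughout, at 0.733 and 0.422 against 2.27 and 2.81 CPM, and had the largest change of the members, 2.13 (SE 0.32, edgeR adjusted p = 0.00145). Slc35e2, of a family of nucleotide sugar transporters, was at 48.6 and 48.3 against 78.1 and 99.2 CPM, a change of 0.87 (SE 0.11, edgeR adjusted p = 0.000643). Stat3, which carries interleukin-6 signals to the nucleus, was at 66.6 and 65.4 against 88.5 and 94.5 CPM, a change of 0.47 (SE 0.08, edgeR adjusted p = 0.00244), and its call was lost without WT replicate 2 (edgeR adjusted p = 0.0594). All 5 had 1 refed summit, and Ccng2, Top2a and Stat3 also had 1 in JMJD1C-LKO replicate 1.

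The lower members with the smallest p hold genes of detoxification, ribosome making and translation. Mgst3, a microsomal glutathione transferase, was at 22.0 and 20.3 CPM in WT and 8.18 and 8.85 CPM in the libraries labelled JMJD1C-LKO, a log2 fold change of -1.31 (SE 0.10, edgeR adjusted p = 6.5e-05). Nol8 and Wdr75 are nucleolar proteins of ribosome assembly. Nol8 was at 27.8 and 27.5 against 16.8 and 16.5 CPM, a change of -0.73 (SE 0.08, edgeR adjusted p = 0.000393). Wdr75 was at 15.7 and 15.1 against 9.07 and 8.49 CPM, a change of -0.81 (SE 0.11, edgeR adjusted p = 0.000827). Yars, the tyrosyl-tRNA synthetase, was at 54.1 and 50.5 against 33 and 25.3 CPM, a change of -0.84 (SE 0.12, edgeR adjusted p = 0.00116). Pter, a phosphotriesterase-related protein, was at 86.4 and 82.0 against 53.4 and 40.2 CPM, a change of -0.85 (SE 0.12, edgeR adjusted p = 0.00122), and was the only one of the 5 with no refed summit. None of the 5 had a summit in a JMJD1C-LKO liver, and each was past the threshold under every other setting tried.

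Among the members with the best fasted ranks, Ldha was at 879 and 897 CPM in WT and 1152 and 1163 CPM in the libraries labelled JMJD1C-LKO. Its log2 fold change was 0.38 (SE 0.08, edgeR adjusted p = 0.00766). Creb3l3, of the gluconeogenic list, was at 300.1 and 286 against 370.3 and 379 CPM, a change of 0.35 (SE 0.08, edgeR adjusted p = 0.00998). In both genes the groups did not overlap, but the calls were lost without WT replicate 1 or without WT replicate 2, where the edgeR adjusted p was 0.101 and 0.0906 for Ldha and 0.0843 and 0.144 for Creb3l3. The other 2 gluconeogenic members, Mdh1 and Creb1, did not pass, at 0.14 and -0.19. Trappc13 and Ddx49 fell by 0.39 each (edgeR adjusted p = 0.0143 and 0.0142) and were lost without either WT replicate (0.0741 and 0.152, and 0.184 and 0.0517), Trappc13 also without JMJD1C-LKO replicate 2 (0.0538), while Atp5l and Cope, at 0.12 and -0.11, did not pass. Alb, at 86052 and 84245 against 81452 and 71442 CPM, had a change of -0.16 that did not pass (edgeR adjusted p = 0.332).

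By role, most listed members passed in neither direction, and the counts below stand against 13.4% lower and 14.6% higher of all genes tested, with no test by role. Per2, a repressor of the clock, was at 78.1 and 78.9 against 59.4 and 53.5 CPM and fell by 0.48 on the log2 scale (edgeR adjusted p = 0.00307), with no overlap of the groups. Of the 3 proteasome members Psmc6 fell by 0.46 and Psmd1 by 0.44 (edgeR adjusted p = 0.00407 and 0.00425), and Psmd10 did not pass, at 0.08. Of 5 ribosomal protein members Rpl19 and Rpl21 fell, by 0.28 and 0.29, and of 4 mitochondrial ones Mrps11 fell by 0.31 (edgeR adjusted p = 0.0275, 0.0199 and 0.0369). Prpf31, a splicing factor, fell by 0.54 and the translation factor Eef1d by 0.26 (edgeR adjusted p = 0.0113 and 0.0346). Vesicle trafficking gave 3 lower of 10 tested members and ubiquitin enzymes 2 lower of 5, among them Ube2s at -0.45 (edgeR adjusted p = 0.00397). Zfp genes gave 1 higher and 2 lower of 11. Kmt2a and Polr3gl were higher, with changes of 0.25 and 0.31 (edgeR adjusted p = 0.0420 and 0.0378). None of the 4 respiratory chain, 3 autophagy or 2 mTOR signalling members passed. Each call given here with a p was lost without 1 WT library, with edgeR adjusted p between 0.0513 and 0.299. Psmc6 and Psmd1 were lost without WT replicate 1, Per2 and Prpf31 without WT replicate 2, and Rpl19, Rpl21, Mrps11, Eef1d, Ube2s, Kmt2a and Polr3gl without either. Mrps11, Kmt2a and Polr3gl were also lost without JMJD1C-LKO replicate 2 (edgeR adjusted p = 0.0728, 0.119 and 0.0530), and Polr3gl without JMJD1C-LKO replicate 1 (edgeR adjusted p = 0.0619).

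Genes with a summit in both JMJD1C-LKO livers moved either way. Rpp38, a subunit of the tRNA-processing RNase P, was at 6.31 and 6.35 against 3.62 and 2.99 CPM, a log2 fold change of -0.94 (SE 0.17, edgeR adjusted p = 0.00362). The bidirectional pair Sdf4 and B3galt6, with a single set of summits, changed in opposite directions, Sdf4 by 0.32 and B3galt6 by -0.53 (edgeR adjusted p = 0.0137 and 0.0491). Rps29, at -0.19, and Kctd7, at 0.21, did not pass. The call of Rpp38 was lost without WT replicate 2 (edgeR adjusted p = 0.0540), that of Sdf4 without either WT replicate (0.171 and 0.111), and that of B3galt6 without any 1 of the 4 libraries (0.0576 to 0.246).

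In base composition the member promoters were CpG-rich, as open promoters commonly are. Within 100 bp of the fasted replicate 1 summit, the median observed to expected CpG ratio was 0.779 and 74.3% of 342 windows reached 0.6, against 48.2% of windows at all transcript starts. Their median GC content of 59.2% was close to that of all starts (58.7%) and below that of summits at genes open after refeeding only (64.7%).

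Motif content set the members apart from other open promoters chiefly in the commonest motifs. A GC box lay within 100 bp of 40.9% of member summits in fasted replicate 1 (interval 35.9 to 46.2) and of 39.8% in fasted replicate 2, against 51.1% and 54.4% at genes open in both states, 68.5% and 67.6% at refed summits of genes open after refeeding only, and 38.7% at all starts. Within 50 bp the order against all starts turned, with 16.1% of member summits in fasted replicate 1 and 26.8% of all starts. NF-Y motifs were likewise rarer at members than at other open promoters, at 23.1% and 26.0% of member summits, 37.0% and 38.1% of those open in both states, 43.8% and 45.5% of those open after refeeding only, and 26.8% of all starts. Fasted summits are compared with refed summits in the last of these groups, so state and gene cannot be told apart there.

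In the 300-base promoters of the RefSeq table, 250 bases before to 50 after a start, 358 members were matched by 441 promoters. A GC box was present in 62.4% of them, an NF-Y motif in 44.2% and a TATA box in 7.71%, against 45.2%, 38.3% and 12.3% of all 23307 promoters. Promoters open in both states held them in 67.7%, 51.1% and 5.51%, and those open after refeeding only in 75.2%, 54% and 6.6%. These 3 differences from all promoters were thus shared with other open promoters, and larger there. The rarer motifs were present in 9.98% (E-box), 9.30% (ETS), 5.90% (NRF1), 2.49% (FOX) and 0.227% (C/EBP) of member promoters, against 7.95%, 5%, 3.45%, 2.99% and 0.232% of all promoters. A CRE was present in 5.90% (interval 4.05 to 8.50), against 3.36% (interval 2.29 to 4.91) of promoters open in both states, 2.43% (interval 1.45 to 4.04) of those open after refeeding only and 2.23% of all. The interval for members overlapped that of the genes open in both states. The 24 members with a CRE, which is bound by CREB family factors, included 8 with no refed summit. Of the 22 CRE members tested, Ldha and Zfand2b were higher and Ddx49, Ints7, Coa7, Rab5a and Plk2 lower in the libraries labelled JMJD1C-LKO, by edgeR's quasi-likelihood test. Of these, Zfand2b, Ints7, Coa7 and Plk2 are named after their values were seen. The calls stand against 14.6% higher and 13.4% lower of all genes tested, and 9.39% and 17.8% of all members, and no difference was tested. Those of Ldha and Ddx49 were lost without either WT replicate, as given above.

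**Figure D4:**
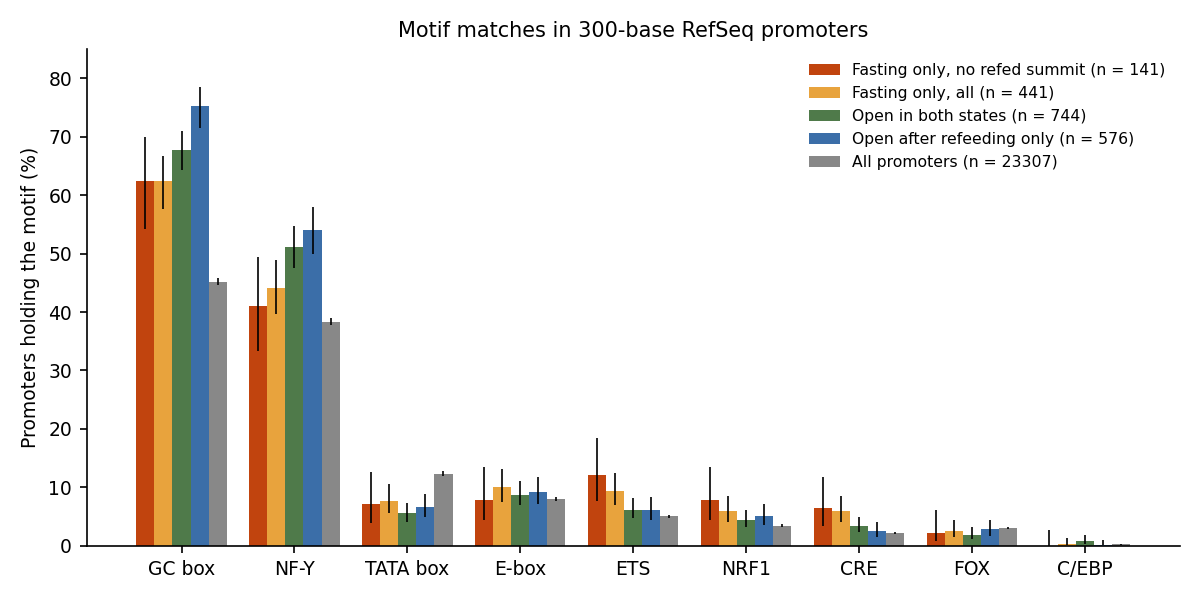
Percent of 300-base RefSeq promoters that hold each of 9 motifs on either strand, for 5 groups of promoters (n in the legend), with 95% Wilson intervals as error bars. GC box shares were 62.4% for members, 75.2% for genes open after refeeding only and 45.2% for all promoters, and CRE shares were 5.90%, 2.43% and 2.23%.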

How the data were processed

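ATAC-seq was made from 6 livers, H3K9me2 ChIP-seq from 4 and RNA-seq from 4 libraries, with 2 samples per group. For ATAC-seq and ChIP-seq the authors aligned reads to mm10 (BWA and Bowtie2) and ran MACS2 2.1.1 on every sample alone at a q-value cutoff of 0.05, with an enrichment of at least 2-fold for ATAC-seq and 2.5-fold over input for ChIP-seq. The deposited values are summits, each with the −log10 of its q-value, without widths or reads, so depth is unknown and scores were compared by rank within a liver. The inputs were not used here. For RNA-seq the deposited values are estimated counts per RefSeq transcript, not scaled. The submitters' processing notes list HISAT2 and Partek, and the counter is not given in the sources used here. A deposited table of the authors' own comparison (p-values and fold changes) was not used.

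Starts of NM_ and NR_ transcripts were read from RefSeq for GRCm38, the build of the files. Distances are to the nearest start, and the strongest summit within 1000 bp stood for a gene. The rule for the genes used the deposited summits of the 4 WT livers. Groups came from titles and genotypes. The replicate numbers are shared names only, and pooled RNA gives p-values that measure the spread between pools. Motifs were counted in the genome with pysam 0.24.0 on both strands, and overlapping matches of different motifs each counted. A summit was in a repeat when over 50% of the bases within 100 bp were masked. Wilson 95% intervals cover counting error only and take genes as independent.

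Estimated counts were summed per gene, rounded and tested in edgeR 4.0.16 (R 4.3.3) with filterByExpr, TMM factors, the quasi-likelihood test and Benjamini-Hochberg adjustment over 14147 genes. Of 24994 transcripts 24682 matched by identifier. Totals lay between 51265128 and 54400509, TMM factors between 0.961 and 1.018, and the common dispersion was 0.00829. CPM values are scaled by TMM. The script was tested on simulated counts with known changes. Alternatives were other windows, a score of at least 5, lists of equal length, repeats left out, NM_ transcripts alone, each liver left out, RLE factors, no filter, a replicate block and DESeq2 1.42.0. The motif search at the summit of fasted replicate 2 was added after seeing the data.

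The members and gene lists were chosen with earlier results of these data known. Genes were named by rule. These were the 10 members with no refed summit that ranked best in both fasted livers, the 5 with the smallest p in each direction, at most 5 per list, those with summits in both JMJD1C-LKO livers or in both H3K9me2 livers of a state (at most 10 each), those at the edge of the window, and the metabolic genes the study names, not all of which are reported here.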

Additional observations from a re-analysis of the deposited data

How the results depend on the processing

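The number of members depended on which summits were counted more than on the window. It was 410 within 500 bp and 451 within 2000 bp, but 233 with a score of at least 5, of which 171 were among the 432, and 270 with lists cut to an equal length of 3119, of which 255 were. Members with no refed summit numbered 54 and 76 under these 2 settings. With 1 liver left out, members ranged from 193 to 2131 and those with no refed summit from 193 to 1204. Members with a JMJD1C-LKO summit ranged from 26 to 110 with 1 liver left out. Members with an H3K9me2 summit numbered 419, between 356 and 419 with 1 liver left out and 99 with lists of equal length, which hold fewer summits by construction.

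Within 50 bp of the summit, which is a shorter window, motif shares were 2.34% (E-box), 13.2% (NF-Y), 16.1% (GC box), 0% (ETS), 0.585% (NRF1), 0.292% (CRE), 0.877% (FOX) and 1.46% (TATA box). For the GC box this lay below the 26.8% of all starts, whereas within 100 bp members were at 40.9% against 38.7%. Windows of all starts are centred on the start and those of members on a summit, so position differs as well as length. NF-Y stood at 13.0% of all starts within 50 bp.

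With 1 library left out, higher members ranged from 6 to 44 and lower members from 10 to 84. DESeq2 gave 31 and 59. With the replicate block the counts were 41 and 71, and B3galt6 was lost. The numbers only name the samples, and the deviations of same-numbered libraries from their group means correlated at -0.00348. Over 8 alternatives none of the 32 called named genes changed sign, and 9 kept their call in every one. Signs turned in some of the genes that had not passed. Depth is unknown for the summit lists, so a missing summit cannot be separated from a shallow library.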

Other observations

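Other members outside the lists also differed in the RNA-seq, and are named here after their values were seen. Lsg1, Nop14, Rrp9 and Cd3eap act in ribosome assembly or ribosomal RNA transcription, and their log2 fold changes in the libraries labelled JMJD1C-LKO were -0.63, -0.48, -0.40 and -0.69. Aimp1, a scaffold of the tRNA synthetase complex, was at -0.35, the chaperonin subunit Tcp1 at -0.39 and the Hsp90 co-chaperone Ahsa1 at -0.34. Of the higher members, Klf6 and Ptp4a1 were at 0.65 and 0.77. All 9 were past an adjusted p of 0.05 by edgeR's quasi-likelihood test. These genes were picked from the called members by what they do, so they show no enrichment of any function.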
